A study of Mus musculus with 8 samples.

Results

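The unfolded protein response and the integrated stress response were examined through 10 listed genes, out of 57186 genes counted, in brain RNA of mice lacking Akap11 conditionally and of control mice. The genes were chosen by name, with earlier results of these data known. Atf4, Atf5, Ddit3, Trib3, Asns, Chac1 and Sesn2 made up the ATF4 branch (7 genes), and Hspa5, Xbp1 and Herpud1 the ER chaperone branch (3 genes). Each group held 4 libraries of total RNA, labelled control and AKAP11 conditional knockout (cKO); the labels give the tissue as "brian", read here as brain. The sources used here do not give strain, promoter of the recombinase, the controls' alleles, age or brain region. No label ties each library to 1 mouse, and p-values therefore measure only how libraries of a group differ, which may be technical. These are tissue RNA counts: fewer cells of a type and less RNA per cell cannot be told apart.

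Cells that meet misfolded protein in the endoplasmic reticulum (ER), amino acid shortage or other stress phosphorylate the translation factor eIF2. Most protein synthesis then slows, while the Atf4 messenger is translated better, and the ATF4 protein switches on genes for amino acid supply and for the choice between recovery and death. In parallel the ER sensors ATF6 and IRE1 raise chaperones and degradation factors, IRE1 by splicing the Xbp1 messenger. In neurons this signalling also bears on protein synthesis at synapses. Gene-level counts show neither translation of Atf4, nor phosphorylation, nor the spliced share of Xbp1.

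Depth ran from 13841218 to 19991942 reads in genes per library. In cKO replicate 1, 63.8% of the listed reads lay in genes, against 73.7% to 79.7% elsewhere, and on the first principal component it stood at 39.1 with the others at 0.48 or below; control replicate 1 stood apart on the second, at 31.0. Akap11, the deleted gene, was lower in all 4 cKO libraries than in every control library, at 228 ± 12.7 against 323 ± 35.3 CPM (SD, n = 4). Its log2 fold change was -0.50 (edgeR adjusted p 0.0103), or 0.71-fold of control. CPM is the count scaled to library size with TMM factors, while sums of cell type markers used library totals alone. The intervals given below rest, like the p-values, on the spread between libraries. They bound changes in tissue RNA only as far as the libraries stand for separate mice. Changes confined to a part of the cells were not measured. All 7 neuronal markers examined had reads, with summed CPM from 6343 to 6854, as did all 6 astrocyte and 5 oligodendrocyte markers.

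None of the 10 stress genes passed a test for a difference between control and cKO brain. By edgeR's quasi-likelihood test, 0 passed an adjusted p of 0.05, where 0.0239% of the 16766 genes tested did, and 0 reached an unadjusted p of 0.05, where 4.78% did; DESeq2 and limma voom also gave 0 by both rules. The groups overlapped in every one of the 10, whereas they did not overlap in 2.96% of all genes. All 10 passed the filter on low counts. The adjusted p ran from 0.889 to 0.986. For 9 of the 10, the 95% interval of the change lay within 1.5-fold in both directions, which held for 76.8% of all genes. The interval of Trib3, at 5 to 21 reads per library, reached past 1.5-fold. A log2 fold change is always cKO minus control here.

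**Figure D1:**
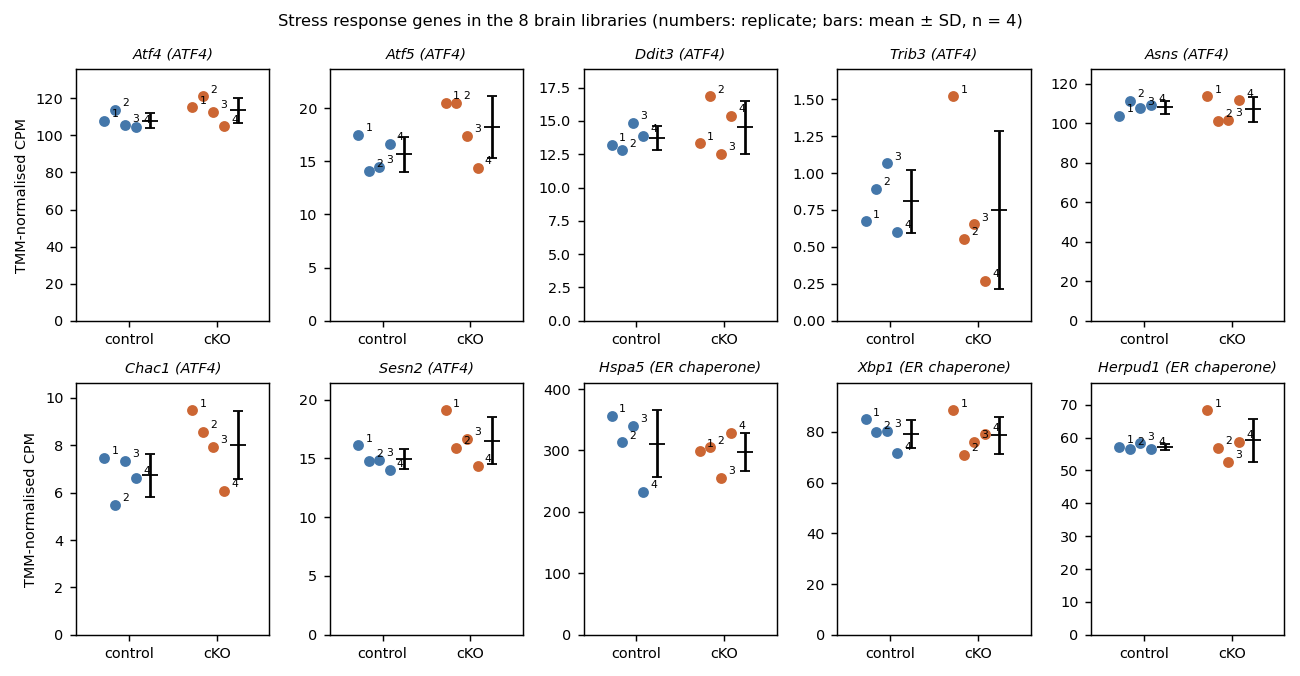
TMM-normalised CPM (vertical axis, starting at 0) of each gene in the 4 control (blue) and 4 cKO (orange) libraries, numbered by replicate, with mean and SD at the right of each group. In all 10 panels the groups overlap, and the control values of Hspa5 spread from 233 to 357 CPM.

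Known promoter elements of the stress factors were searched near the starts of the 10 genes, and stretches that hold them are shown to give the letters these factors are known to bind. ATF4 binds the C/EBP-ATF response element (CARE), searched as TGATGNAA. ATF6, with the factor NF-Y, binds the ER stress response elements, searched as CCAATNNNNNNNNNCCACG (ERSE) and ATTGGNCCACG (ERSE-II), and spliced XBP1 binds the unfolded protein response element, searched as TGACGTGG. Both strands were read in RefSeq windows from 250 bases before to 50 after a gene's start (build GRCm38.p6, while the counts were made on GRCm39). All 10 genes matched a window, Atf5 matched 2, and no matches overlapped in the windows of these genes. Only exact matches were counted, and elements with a changed letter were not searched. Matches are in capitals, read 5′ to 3′ along each gene's own strand.

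The whole 250 bases before the start of Hspa5 (chr2:34771840-34772089, plus strand) hold 1 exact match to the ERSE, which begins 65 bases before the start. It is followed by the stretches around the elements of Herpud1 (chr8:94386307-94386397, plus strand), Asns (chr6:7693215-7693242, minus strand) and Chac1 (chr2:119351039-119351066, plus strand).
Hspa5: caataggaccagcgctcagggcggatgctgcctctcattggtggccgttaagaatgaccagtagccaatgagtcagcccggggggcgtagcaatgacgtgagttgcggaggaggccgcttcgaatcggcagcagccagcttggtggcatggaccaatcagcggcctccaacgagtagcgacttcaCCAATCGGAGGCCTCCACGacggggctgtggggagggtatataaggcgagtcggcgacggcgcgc
Herpud1: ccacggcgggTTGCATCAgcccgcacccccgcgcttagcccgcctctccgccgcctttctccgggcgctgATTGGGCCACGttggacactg
Asns: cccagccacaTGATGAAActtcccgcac
Chac1: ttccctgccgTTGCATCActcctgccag

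Matches to the ERSE and ERSE-II fell only in Hspa5 and Herpud1, while CARE matches fell in both branches. Herpud1, of the ER chaperone branch, held a CARE and an ERSE-II, while Asns and Chac1 held 1 CARE each. The window of Trib3 held a CARE after the start. No exact match of the 4 elements was found in the windows of Atf4, Atf5, Ddit3, Sesn2 and Xbp1. Of 32817 windows of the same length, 3.97% held a CARE, 0.119% an ERSE, 0.0366% an ERSE-II and 0.676% the XBP1 element. A match of letters is a description and shows no binding.

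Among the regulators of the ATF4 branch, Atf4 itself, the transcription factor at the branch's centre, was measured precisely. Its control libraries held 108, 114, 105 and 105 CPM in replicates 1 to 4, and its cKO libraries 115, 121, 113 and 105 CPM. The lowest cKO library thus fell among the controls, while cKO replicates 1 and 2 lay above all of them. Atf4 gave a log2 fold change of 0.07 with an SE of 0.060 (edgeR adjusted p 0.894), and its 95% interval excluded a rise above 14.7% and a fall beyond 3.60%. With GC-content offsets, which remove each library's trend with base composition, Atf4 stood at 0.02.

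Atf5, a related factor whose translation is also under eIF2 control, stood at 17.5, 14.1, 14.5 and 16.7 CPM in the controls. The cKO libraries held 20.5, 20.5, 17.4 and 14.4 CPM, so that replicates 1 and 2 lay above the controls and replicate 4 near the bottom of their range. On the log2 scale Atf5 stood 0.21 above controls (SE 0.11), within a 95% interval from -0.03 to 0.45. Its unadjusted edgeR p, 0.0772, was the lowest of the 10, and its adjusted p was 0.889. It was 0.11 with GC-content offsets, and Atf5, at 61.7% GC in its longest transcript, had the highest GC content of the 10. Its exons share 82 bases with Nup62 on the other strand, and the strand setting of the counts is not given.

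Ddit3 encodes CHOP, the factor that links lasting ER stress to cell death. Control libraries held 13.2, 12.8, 14.9 and 13.9 CPM and cKO libraries 13.3, 16.9, 12.5 and 15.4 CPM, with both the highest and the lowest value in the cKO group. The change in Ddit3 was 0.08 on the log2 scale (SE 0.11), its 95% interval reaching from -0.14 to 0.31 (edgeR adjusted p 0.919). It shares 68 exon bases with Mars1, which lies on the opposite strand and had a change of 0.17. A further identifier for the upstream reading frame of Ddit3 shares 105 bases and had 0 reads.

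Trib3, a pseudokinase that restrains ATF4 and CHOP, was close to the limit of detection, with 5 to 21 reads per library and 107 in all. Its controls held 0.67, 0.89, 1.06 and 0.60 CPM, and its cKO libraries 1.52, 0.55, 0.65 and 0.27 CPM. The highest and the lowest library were both cKO, 5.59-fold apart. The change in Trib3 was -0.18 on the log2 scale (SE 0.42), with limits of -1.05 and 0.70. It was -0.69 without cKO replicate 1 and 0.10 without cKO replicate 4, so that a direction could not be given. Its within-group SD was 0.65 on the log2 scale, where the median of 2444 genes within 2-fold of its level was 0.43. The parts of depth and of this spread in the wide interval were not tested.

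Among the effectors, Asns, the enzyme that makes asparagine, was the steadiest of the 10. Control libraries held 104, 112, 108 and 109 CPM and cKO libraries 114, 101, 102 and 112 CPM, the cKO values bracketing all the controls. Asns differed by -0.01 on the log2 scale, with an SE of 0.060 (edgeR adjusted p 0.977), and its interval excluded a rise above 7.99% and a fall beyond 9.09%.

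Chac1, which breaks down glutathione, stood at 7.47, 5.48, 7.35 and 6.63 CPM in controls and at 9.48, 8.58, 7.94 and 6.09 CPM in cKO libraries. Here 3 of 4 cKO libraries exceeded every control, and cKO replicate 4 lay below 3 of them. Chac1 had the highest log2 fold change of the 10, at 0.24 (SE 0.15) with limits of -0.06 and 0.55, and did not pass (edgeR adjusted p 0.889). Leaving out cKO replicate 1 gave 0.16 for Chac1, and GC-content offsets gave 0.18. Not every member of the branch shrank under these offsets: Ddit3 moved from 0.08 to 0.11 and Trib3 from -0.18 to -0.25.

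Sesn2, a leucine-binding inhibitor of the growth kinase mTORC1, held 16.1, 14.8, 14.9 and 14.0 CPM in controls and 19.1, 15.9, 16.7 and 14.4 CPM in cKO libraries. Replicates 1 and 3 of the cKO group lay above the controls, and the other two within their range. The 0.14 of Sesn2 on the log2 scale, with an SE of 0.099 (edgeR adjusted p 0.889), became 0.06 once cKO replicate 1 was left out and 0.06 under GC-content offsets. Leaving out cKO replicate 4 moved the opposite way: Atf5 then stood at 0.31 and Chac1 at 0.35 (edgeR unadjusted p 0.0108 and 0.0220, both with an adjusted p of 0.679), in a fit where 7.22% of all genes reached an unadjusted p of 0.05.

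In the ER chaperone branch, Hspa5 encodes BiP, the main Hsp70 chaperone of the ER and the partner that holds the ER stress sensors inactive. Control libraries held 357, 313, 340 and 233 CPM and cKO libraries 299, 305, 256 and 329 CPM. The widest gap lay inside the control group, where replicate 4 was lower than every other library, and all cKO values fell within the control range. Hspa5 differed by -0.06 on the log2 scale (SE 0.13) with limits of -0.35 and 0.22 (edgeR adjusted p 0.947). Without control replicate 4 the difference was -0.18 (edgeR unadjusted p 0.0290, adjusted p 0.788, in a fit where 5.91% of all genes reached an unadjusted p of 0.05), and without control replicate 1 it was 0.012.

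Xbp1, the factor that IRE1 activates by splicing, held 84.9, 79.9, 80.4 and 71.6 CPM in controls and 88.6, 70.9, 76.1 and 79.0 CPM in cKO libraries. Both extremes were cKO libraries, and the means differed by less than either SD (79.2 ± 5.57 and 78.7 ± 7.40 CPM, n = 4). Xbp1 differed by -0.01 on the log2 scale, with an SE of 0.072 (edgeR adjusted p 0.986). Its interval excluded changes above 10.2% upwards and 10.6% downwards.

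Herpud1, a membrane protein that organises ER-associated degradation, was nearly constant in controls, at 57.2, 56.6, 58.3 and 56.5 CPM, and ranged wider in cKO libraries, at 68.3, 56.8, 52.6 and 58.7 CPM. The high value was cKO replicate 1 and the low one cKO replicate 3, and no test of the difference in spread was made. The change in Herpud1 was 0.05 on the log2 scale (SE 0.073), between limits of -0.11 and 0.20 (edgeR adjusted p 0.933), and -0.03 without cKO replicate 1.

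**Figure D2:**
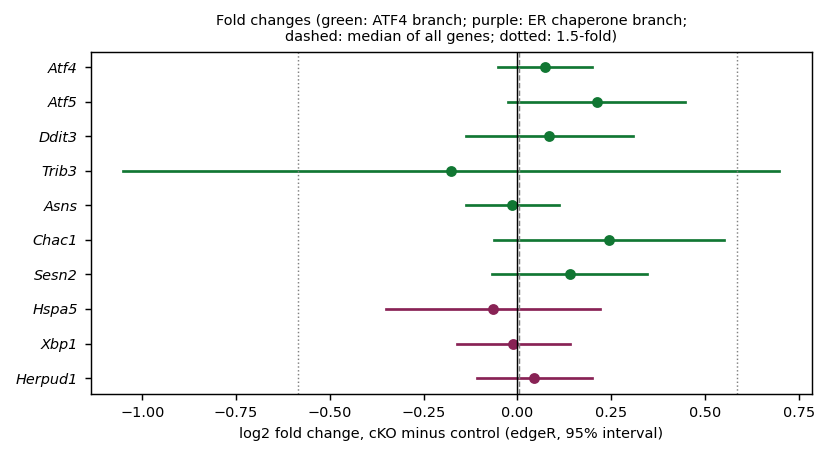
Log2 fold change (horizontal axis, cKO minus control) with 95% interval for each gene, ATF4 branch in green and ER chaperone branch in purple; the dashed line is the median of all genes and dotted lines mark 1.5-fold. Every interval includes 0, and Trib3 alone reaches past 1.5-fold.

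Set side by side, log2 fold changes were above 0 for 5 of the 7 ATF4 branch genes (median 0.08) and for 1 of the 3 ER chaperone genes (median -0.01). Across all genes tested the median was 0.0034 and 51.2% were positive. As the mean log2 level relative to controls, the ATF4 branch without the sparse Trib3 stood at 0.23, 0.20, 0.07 and -0.02 in cKO replicates 1 to 4, where controls ran from -0.07 to 0.05. The ER chaperone branch stood at 0.13, -0.06, -0.15 and 0.05 in the same cKO libraries, and controls ran from -0.19 to 0.11. With Trib3 included, the ATF4 branch stood at 0.32, 0.11, 0.02 and -0.19 in the cKO libraries and from -0.05 to 0.07 in controls. The branch difference (all 7 ATF4 genes minus ER chaperone) averaged 0.07 with an SD of 0.21 over the cKO libraries, was -0.24 in cKO replicate 4, and had an SD of 0.097 in controls. Without Trib3 the same difference averaged 0.13 with an SD of 0.15 over the cKO libraries, and its SD around 0 in controls was 0.12. These are descriptions of chosen genes and carry no test.

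The libraries did not contribute evenly. cKO replicate 1 was the highest of the 8 libraries for 6 of the 10 genes (Trib3, Asns, Chac1, Sesn2, Xbp1 and Herpud1), while it was the highest for 23.0% and the lowest for 23.8% of all genes tested. It also had the largest shares of ambiguous reads (10.1%), reads of low mapping quality (7.18%) and unaligned reads (10.4%). The part of these in the levels of the stress genes was not tested.

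Per kilobase of exon the order of levels was Hspa5, Atf4, Asns, Herpud1, Xbp1, Atf5, Ddit3, Sesn2, Chac1 and Trib3. Hspa5 stood at 73.5 ± 12.9 CPM per kilobase in control and 70.3 ± 7.22 in cKO brain (SD, n = 4), and Trib3 at 0.38 ± 0.099 and 0.35 ± 0.25. The ranges over the 8 libraries overlapped between neighbours for Herpud1 and Xbp1, Atf5 and Ddit3, and Sesn2 and Chac1, so these pairs cannot be ordered; the other neighbours did not overlap. Exon lengths came from GENCODE M21, which may differ from the annotation behind the counts.

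Hspa5 varied between libraries of 1 group far more than genes of its level usually did. Its within-group SD was 0.22 on the log2 scale, where the median of 1293 genes within 2-fold of its level was 0.082, and 98.5% of those genes had a smaller SD. Trib3, Atf5, Chac1, Xbp1, Herpud1 and Ddit3 were also above the middle of genes at their levels. The share with a smaller SD was 88.5% for Trib3, 86.3% for Atf5 and 76.0% for Chac1. It was 72.9% for Xbp1, 63.2% for Herpud1 and 55.9% for Ddit3. Sesn2 lay just below the middle, at 46.6%. Atf4 and Asns lay further below it, with SDs of 0.073 and 0.068, larger than 32.2% and 27.5% of genes at their levels.

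Genes that followed Hspa5 over the libraries were then listed. Of 10330 genes with a mean of at least 10 CPM, the 5 whose log2 CPM followed Hspa5 most closely over the 8 libraries were Pdia6, Hyou1, Dnajb11, Ssr2 and Castor2. Pdia6 is a disulfide isomerase (Pearson's r 0.975, Spearman's rho 0.905). Hyou1 (r 0.967, rho 0.857) and Dnajb11 (r 0.966, rho 0.929) encode partners of BiP, and Ssr2 (r 0.958, rho 0.905) a subunit of the translocon-associated complex of the ER. Castor2 (r 0.956, rho 0.905) belongs to a family of arginine sensors. As the highest of so many, these values are descriptions with no p. Without the libraries farthest from the median of Hspa5, control replicate 4 and cKO replicate 3, r ran from 0.794 (Hyou1) to 0.857 (Ssr2).

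Pdia6 shows the pattern in single libraries. It held 137, 124, 137 and 106 CPM in controls and 128, 126, 111 and 136 CPM in cKO libraries, again lowest in control replicate 4 and next in cKO replicate 3. In a list of 18 further ER chaperones and folding enzymes, which holds Pdia6, Hyou1 and Dnajb11, control replicate 4 was the lowest library for 8 and control replicate 1 the highest for 11, against 8.41% and 16.7% of all genes. The list did not follow Hspa5 throughout. cKO replicate 1 was the lowest library for 5 of the 18 (Hsp90b1, Canx, Dnajb9, Dnajc3 and Ero1a), or 27.8%, against 23.8% of all genes. cKO replicate 3 was the lowest for 2, or 11.1%, against 9.33%. Both shares were thus near those of all genes. Ppib ran the other way, highest in control replicate 4 and lowest in control replicate 1. Calr, the chaperone calreticulin, stood at 350 CPM in control replicate 4 and 417 CPM in control replicate 1.

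Marker sums of other cell types were set beside Hspa5. The summed level of 6 choroid plexus markers, all with reads, was lowest within each group in control replicate 4 (476 CPM) and in cKO replicate 3 (405 CPM), and highest in control replicate 1 (644 CPM) and cKO replicate 4 (652 CPM). Control replicate 2 was nearly as low as control replicate 4, at 482 CPM, while Hspa5 there was 0.03 above the control mean on the log2 scale. Most of the sum came from Ttr, at 368 to 602 CPM. Control replicate 4 held the highest sum of 5 blood markers, 28.7 CPM, against 3.30 to 11.3 CPM elsewhere, with cKO replicate 3 at 7.78 CPM. Control replicate 4 was also the highest control for endothelial (275 CPM) and meningeal (98.8 CPM) markers. There cKO replicate 3 stood at 251 and 89.2 CPM, inside cKO ranges of 237 to 264 and 86.3 to 103 CPM. Ependymal markers were lowest in control replicate 2 (15.6 CPM), with control replicate 4 at 16.6 CPM and cKO replicate 3 at 17.0 CPM. Pituitary markers summed to between 1.59 and 9.32 CPM, with Lhb at 0 in all libraries. The part of these cells in the level of Hspa5 was not tested.

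Atf4 followed other genes. Its nearest by the same rule were Ndufa7 (r 0.977, rho 0.952), a complex I subunit of mitochondria, Osbpl10 (r 0.957, rho 0.833), Timm13 (r 0.954, rho 0.929), a mitochondrial import factor, Slc35c1 (r 0.950, rho 0.905) and Rcc2 (r 0.950, rho 0.976). None of these belonged to the stress lists examined.

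**Figure D3:**
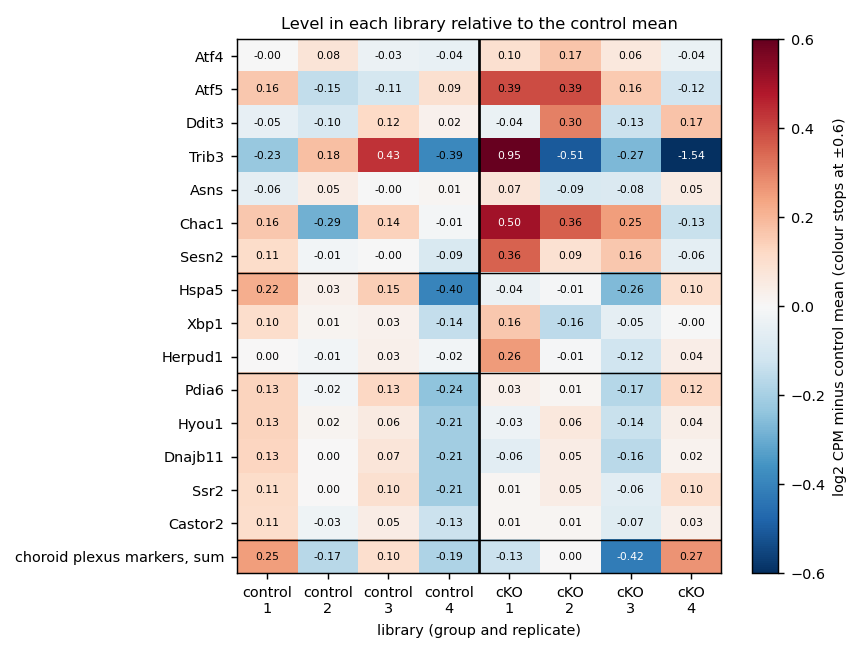
Log2 CPM of each gene (rows) in each library (columns) minus the control mean, red for higher and blue for lower, with colour stopping at 0.6; the rows are the ATF4 branch, the ER chaperone branch, the 5 genes nearest to Hspa5 and the sum of choroid plexus markers. Hspa5 is at -0.40 in control replicate 4 and -0.26 in cKO replicate 3, and Pdia6 at -0.24 and -0.17.

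The pathways around both branches were read from 8 further lists of 98 genes. Of the 96 tested, 0 passed edgeR's adjusted p and 2 (2.08%) reached an unadjusted p of 0.05, Mars1 and Edem2, against 0.0239% and 4.78% of all genes. Of the 96, 46 had a positive and 50 a negative log2 fold change, with a median of -0.0020. The groups did not overlap for 3 of the 96, Eif2b4, Slc7a1 and Edem2, a share close to the 2.96% of all genes.

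Upstream, the kinases of eIF2, the exchange factor eIF2B and the eIF2 phosphatase subunits gave a median of 0.03, with 8 of 12 positive. Eif2ak4, encoding GCN2, the kinase that senses amino acid shortage, stood at 0.15 (SE 0.076), and Eif2ak3, encoding PERK, the kinase that senses ER stress, at -0.13 (SE 0.075). Neither passed (edgeR adjusted p 0.889 each). The ER sensors and their processing factors had a median of 0.0017 over 9 genes, with Atf6b at 0.15 (SE 0.080) and Creb3l1 at 0.26 (SE 0.19).

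Downstream of ATF4, the enzymes of serine, proline and one-carbon metabolism had a median of 0.0078 over 11 genes, and Aldh18a1 and Pck2 stood at -0.13 and 0.12. Amino acid transporters had a median of 0.02 over 9 genes. In this list Slc1a4, a transporter of serine and alanine, was at 0.15 (SE 0.076), and Slc7a1, which carries arginine and lysine, at -0.12 (SE 0.062). Slc7a1 held 65.2, 59.8, 66.7 and 60.2 CPM in controls and 56.5, 58.6, 57.5 and 58.7 CPM in cKO libraries, all below the controls, with an edgeR unadjusted p of 0.0627.

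The 12 cytosolic tRNA synthetases had a median of -0.0012. Mars1, for methionine, was at 0.17 (SE 0.077, edgeR unadjusted p 0.0359, adjusted p 0.889) and Wars1, for tryptophan, at 0.06. Regulatory and secreted targets had a median of 0.02 over 10 genes, with the transcription factor gene Cebpb at 0.30 (SE 0.18) and the stress regulator Nupr1 at -0.23 (SE 0.14). Gdf15 and Fgf21, stress hormones, were too low to test, with 0 to 4 and 0 to 3 reads per library.

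On the ER side, 14 of 18 chaperones and folding enzymes were negative, with a median of -0.04 and 0 past either threshold. The mean log2 level of this list relative to controls was -0.06, -0.01, -0.09 and 0.03 in cKO replicates 1 to 4. Control libraries ran from -0.15 to 0.09, a range that held all cKO values. Manf, a secreted ER stress factor, stood at -0.15 (SE 0.086) and the oxidase gene Ero1b at -0.13 (SE 0.087). Degradation factors had a median of -0.03 over 15 genes, 9 of them negative. Edem2, which trims mannose from misfolded glycoproteins, stood at 0.21 (SE 0.085, edgeR unadjusted p 0.0228, adjusted p 0.889). It held 16.8, 18.4, 18.4 and 19.6 CPM in controls and 22.0, 21.2, 21.5 and 20.0 CPM in cKO libraries, with no overlap. The ubiquitin ligase gene Syvn1 stood at 0.13 (SE 0.085).

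**Figure D4:**
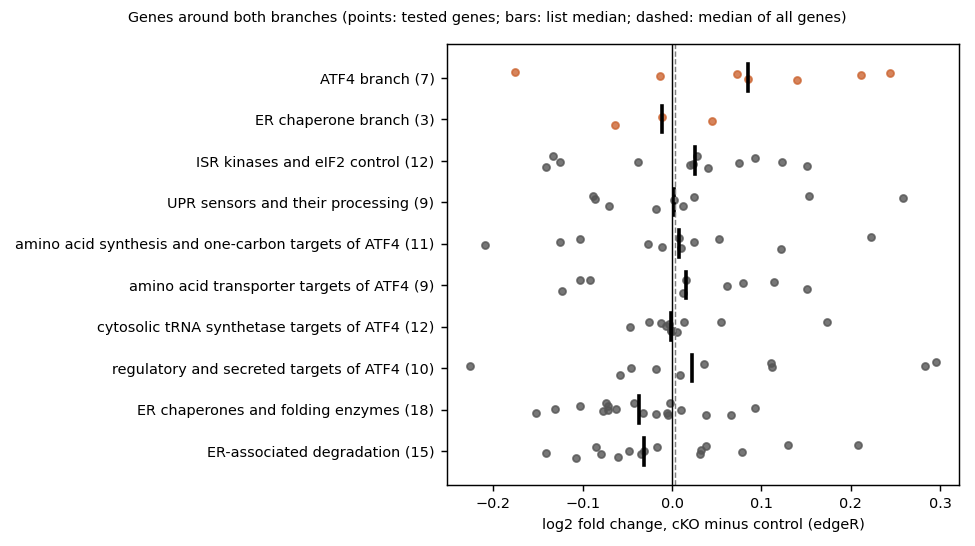
Log2 fold change (horizontal axis, cKO minus control) of every tested gene in both branches (orange) and in 8 lists around them (grey), with the number of genes in brackets, the list median as a black bar and the median of all genes dashed. Points lie on both sides of 0 in each list, between -0.23 and 0.30.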

How the data were processed

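Total RNA from 8 brain libraries was sequenced, 4 per group, grouped by title. Each deposited file lists raw read counts by gene, as whole numbers. HISAT2 and GRCm39 are named in the submitters' processing notes, and the sources used here give no counting program, strand setting or annotation. Of 57186 identifiers, 51880 were paired with a symbol; for Ddit3 the identifier with reads was used. The 5 closing entries that name no gene were left out; genes held 63.8% to 79.7% of listed reads per library.

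Counts were filtered with filterByExpr, scaled by TMM and compared with edgeR 4.0.16 (robust quasi-likelihood, group alone) under R 4.3.3. P-values were adjusted by Benjamini and Hochberg's method across the 16766 genes tested, with a threshold of 0.05. The fit was tested on simulated data. Alternatives used DESeq2 1.42.0 and limma 3.58.1 (voom). Replicates of a group differed by more than counting noise (chi-square per gene 3.58 to 22.3). The members and lists were chosen with earlier results of these data known. All 10 members were named, with Akap11, the 2 genes of lowest p in each wider list and the 5 genes nearest to Hspa5 and to Atf4. Genes without overlap, Calr, Gdf15, Fgf21 and the markers Ttr and Lhb were named after their values were seen. So were Hsp90b1, Canx, Dnajb9, Dnajc3, Ero1a and Ppib. The log2 CPM used a prior count of 2.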

Additional observations from a re-analysis of the deposited data

How the results depend on the processing

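Over 17 alternatives, 0 of the 10 genes passed an adjusted p of 0.05 in any (lowest 0.679), and 160 of the 170 log2 fold changes kept their sign. Atf4, Atf5, Ddit3, Chac1 and Sesn2 stayed positive in all 17. Those that turned did so when libraries were left out. With 1 library left out in turn, Trib3 ran from -0.69 to 0.10, Asns from -0.046 to 0.012, Hspa5 from -0.18 to 0.012, Xbp1 from -0.075 to 0.035 and Herpud1 from -0.033 to 0.094. With control replicate 1 and cKO replicate 1 both left out, Hspa5 stood at 0.0069 and Herpud1 at -0.027. An unadjusted p under 0.05 was reached by 0 to 2 of the 10 with 1 library left out (Atf5 without control replicate 1, Hspa5 without control replicate 4, Atf5 and Chac1 without cKO replicate 4), and by 1 (Atf5) with no low-count filter. In those 4 fits 2.73%, 5.91%, 7.22% and 5.15% of all genes reached it.

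Across all genes, 4 passed the adjusted test. The count was 7 with no low-count filter, 2 with limma voom, 2 with both libraries left out and 0 to 3 with 1 library left out, 3 without cKO replicate 1 and 2 or fewer without any other. With the replicate number as a block it was 2. The block changed no call among the 10 genes. Same-numbered libraries did not deviate together (r from -0.047 to 0.073 over 10368 genes), so the numbers were not taken as pairs. Trib3 was the most thinly covered of the 10, with 5 to 21 reads per library.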
